A study of Mus musculus with 11 samples.

Results

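Metallothioneins and antioxidant genes were followed across the cell classes of the neonatal mouse retina. The 10 genes were Mt1, Mt2, Mt3, Gpx4, Prdx1, Prdx6, Sod1, Sod2, Hmox1 and Gstp1, chosen by name from earlier results of these data, and all 10 were found among the 25311 genes of the count table. The study asked how hyperglycemia during retinal development, and the fatty acids in the diet, change the retina in Phase I retinopathy of prematurity (Phase I ROP). C57BL/6J mice were used at postnatal day 10. The control group (n = 3 mice) received PBS, and the STZ group (n = 3 mice), their littermates, received streptozotocin, which makes the pups hyperglycemic. Other STZ mice, littermates of each other by the labels, were divided between cages whose nursing dams ate a diet enriched in ω-3 (n = 2 mice) or ω-6 (n = 3 mice) long-chain polyunsaturated fatty acids. All 8 mice of the STZ and diet groups thus carried the STZ treatment, and there was no diet group without it. STZ is a toxin of insulin-producing cells, so the model stands for hyperglycemia rather than for prematurity itself. Retinas were dissociated with papain and single cells were captured with inDrop, a droplet method in which each captured RNA molecule carries a random tag (unique molecular identifier, UMI), so that tags rather than reads are counted.

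Metallothioneins are small cysteine-rich proteins that bind zinc and copper and can take up oxidants. Mt1 and Mt2 are widely inducible by metals and stress hormones, whereas Mt3 is known from the nervous system. Superoxide dismutases turn superoxide into hydrogen peroxide, Sod1 mainly in the cytosol and Sod2 in mitochondria. Peroxiredoxins (Prdx1, Prdx6) and the glutathione peroxidase Gpx4, which acts on lipid peroxides, then reduce peroxides. Gstp1 conjugates glutathione to reactive compounds, and Hmox1 breaks down haem. In the retina, photoreceptor membranes are rich in polyunsaturated fatty acids and exposed to light and oxygen, and Müller glia span the tissue and supply neurons with glutathione and its precursors.

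Cells were grouped into clusters and the clusters named from canonical markers. The classes with enough cells for a comparison between mice were rods (9746 cells), bipolar cells (3596), amacrine cells (3287), Müller glia (1425) and cones (1126). Each class carried its defining markers, apart from 7 smaller rod clusters without rod markers among their leading genes. The leading rod cluster held 135 of 234, 75 of 193 and 284 of 467 rods in the control mice. In the STZ mice it held 838 of 1029, 523 of 649 and 1114 of 1246 rods. The rod sums of control and STZ mice thus hold unlike shares of the smaller clusters. When each cell was instead given a class by a marker score, 72.4% of all kept cells had the same class as by cluster. In control mice 1, 2 and 3 the score gave 127, 64 and 239 rods, and 49, 33 and 103 cones. By cluster the control cones were 14, 13 and 46. Total UMIs ran from 2565568 to 6517776 per mouse. Control mice differed from the other 8 in their mitochondrial UMIs, which made up 10.7% to 12.5% in control and 3.61% to 8.61% elsewhere, and 73 cones were recovered from the 3 control mice. The libraries shared 1157 cell barcodes, which were carried by 2352 cells (11.7%). UMIs were summed per mouse and class, and levels are given as UMIs scaled to a common library total (CPM) with TMM scaling, which corrects for unequal RNA composition. Since CPM of different genes depend on how well each transcript is captured, a level is compared only with levels of the same gene.

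The 3 metallothionein genes lie side by side on mouse chromosome 8 (GRCm38), in the order Mt3 (94152607 to 94154146), Mt2 (94172664 to 94173568) and Mt1 (94179082 to 94180327), all on the plus strand and protein coding. Their promoter windows from RefSeq (GRCm38.p6, 250 bases before to 50 bases after the annotated start) are shown because the metal response element, the site of the zinc sensor Mtf1, is the known control element of this family. Capitals mark each match to its core, searched as TGCGCNC or TGCACNC on both strands.
Mt1 (chr8:94178839-94179138, plus strand): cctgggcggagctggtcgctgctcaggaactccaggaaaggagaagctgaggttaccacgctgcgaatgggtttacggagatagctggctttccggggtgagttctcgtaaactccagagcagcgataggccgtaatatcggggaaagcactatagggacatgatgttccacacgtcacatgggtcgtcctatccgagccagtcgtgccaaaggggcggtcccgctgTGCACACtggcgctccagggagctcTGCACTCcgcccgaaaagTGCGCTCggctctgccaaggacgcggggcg
Mt2 (chr8:94172368-94172667, plus strand): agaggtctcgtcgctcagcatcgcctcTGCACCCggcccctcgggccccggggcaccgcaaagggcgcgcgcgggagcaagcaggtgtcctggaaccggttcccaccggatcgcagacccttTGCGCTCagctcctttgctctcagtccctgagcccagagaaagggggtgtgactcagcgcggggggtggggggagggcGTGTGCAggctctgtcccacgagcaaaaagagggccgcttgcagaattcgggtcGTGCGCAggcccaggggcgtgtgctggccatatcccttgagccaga
Mt3 (chr8:94152357-94152656, plus strand): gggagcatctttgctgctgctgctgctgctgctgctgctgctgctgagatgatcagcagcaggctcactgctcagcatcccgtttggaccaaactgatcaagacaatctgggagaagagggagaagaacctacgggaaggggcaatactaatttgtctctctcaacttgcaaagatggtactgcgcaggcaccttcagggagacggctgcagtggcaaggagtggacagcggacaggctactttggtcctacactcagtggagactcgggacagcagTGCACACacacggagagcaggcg
The windows held 3 matches at Mt1, 4 at Mt2 and 1 at Mt3. Of all 32851 promoter windows in the RefSeq table, 25.7% held at least 1 match, 1.97% at least as many as Mt1 and 0.517% at least as many as Mt2. A match is a description of the letters and not a mapped binding site.

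Mt1, Mt2, Mt3, Prdx6, Hmox1 and Prdx1 were highest in Müller glia by their medians over the 5 classes. These differences between classes are given without a test, because the classes came from clustering the same cells. Mt1 in Müller glia was 384, 332 and 687 CPM in the control mice and 623, 790.3 and 499 CPM in the STZ mice. On the diets it was 650.0 and 272 CPM with ω-3 and 483, 393 and 378 CPM with ω-6. The lowest of these 11 values lay above the highest in the other classes among these 5, which was 64.0 CPM in amacrine cells of a control mouse. Amacrine cells came next with a median of 26.9 CPM over 11 mice, then bipolar cells (11.2 CPM), rods (4.31 CPM) and cones (0 CPM). The ranges of each of these neighbours overlapped, although Mt1 was higher in amacrine than in bipolar cells in 10 of 11 mice.

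Mt2 also stood higher in glia than in any neuron class. In Müller glia it ran from 39.9 to 387 CPM with a median of 175 CPM, whereas the highest value in any neuron class was 9.86 CPM, in bipolar cells. Mt3 ran from 16.8 to 99.7 CPM in Müller glia and reached at most 12.6 CPM in a neuron class, again bipolar cells. For both genes the lowest glial value lay above all values of the other classes. Prdx6, whose product also reduces phospholipid peroxides, ran from 419.6 to 973 CPM in Müller glia, and its values in these neuron classes ended at 52.3 CPM. Hmox1 was low everywhere, with a glial median of 19.4 CPM and a range of 6.65 to 103 CPM whose lower end overlapped bipolar cells (up to 8.62 CPM) but none of the other 3 neuron classes, and it was higher in glia than in bipolar cells in 11 of 11 mice.

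**Figure D1:**
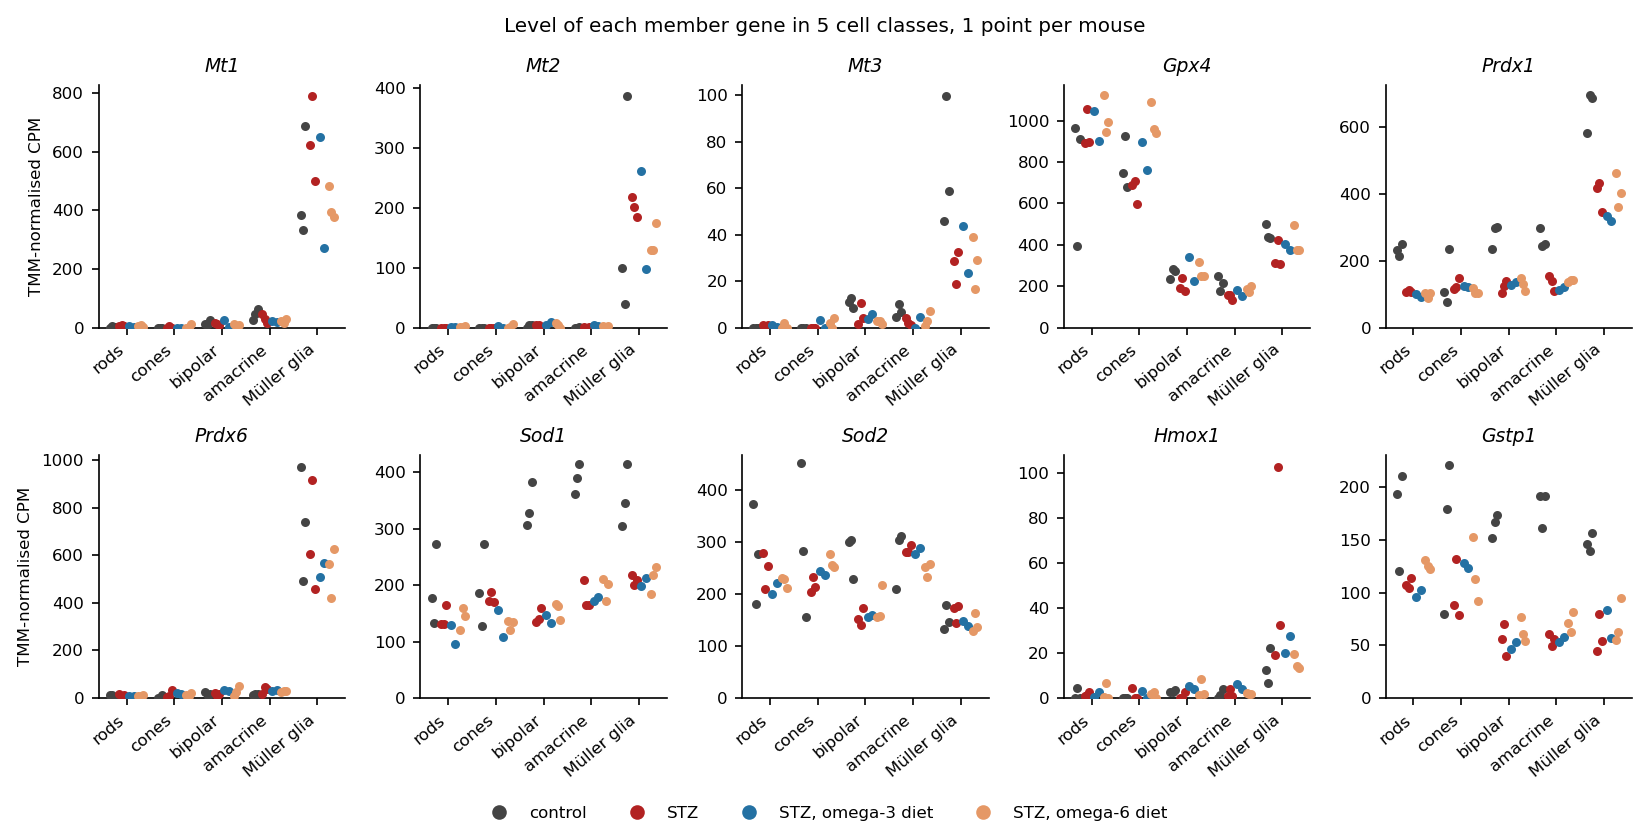
Each panel plots 1 gene, with the cell class on the x axis and the TMM-normalised CPM on a linear y axis starting at 0; each point is 1 mouse, coloured by group. Mt1, Mt2, Mt3 and Prdx6 points of Müller glia lie above those of the 4 neuron classes, Gpx4 points are highest in rods and cones apart from 1 control mouse in rods, and the control points of Prdx1, Sod1 and Gstp1 lie apart from the others in bipolar cells, amacrine cells and Müller glia.

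Per cell, Mt1 was seen in 37.4% of Müller glia and in 7.12% of amacrine cells. Because amacrine cells were sequenced more deeply (median of 3053 UMIs against 2082), each cell was also thinned to 1000 UMIs, leaving out 316 shallower glia and 226 shallower amacrine cells. The shares were then 26.6% of glia, 2.38% of amacrine cells, 1.05% of bipolar cells, 0.36% of rods and 0.197% of cones. At that depth Mt2 was seen in 10.3% of glia and Prdx6 in 39.0%, against 0.426% and 1.87% of bipolar cells.

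Droplets also take up free RNA from broken cells, so the neuron levels were set against glial genes that neurons should lack. Glul, Rlbp1, Apoe and Slc1a3, all abundant in Müller glia, stood at 0.389% to 2.75% of their glial level in bipolar cells and at 0.531% to 3.71% in amacrine cells, while Dkk3 reached 17.7% there. Mt2 stood at 2.29% in bipolar and 0.863% in amacrine cells, inside the range of those 4 glial genes, so its neuron counts cannot be told from free RNA. Mt1 at 2.48% in bipolar cells was likewise inside that range, but at 5.51% in amacrine cells it was above those 4 genes and below Dkk3. Mt3 at 15.4% in bipolar cells was above all of these glial genes, with Dkk3 at 1.02% there. At 9.94% in amacrine cells Mt3 was above the 4 genes and below Dkk3. Which of the glial genes better measures free RNA in amacrine cells was not tested.

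The amacrine clusters were not alike in Mt1. A cluster of 157 amacrine cells led by Pou3f3 held 77 Mt1 UMIs, or 152 CPM (120.1 to 190.3) with an exact Poisson 95% interval that covers counting error only. The same cells held no Mt2 UMI and 18 Mt3 UMIs. In Müller glia, by comparison, Mt1 stood at 509 CPM and Mt2 at 190.3 CPM, so the cluster did not hold both genes in the proportion found in glia. Mt1 was seen in this cluster in 10 of 11 mice. A cluster of 309 amacrine cells led by Dync1i1 and Kcnh1 held 66.9 CPM (53.2 to 83.0) of Mt1, and the 2 largest amacrine clusters, of 1356 and 1337 cells, held 21.3 and 13.2 CPM. These clusters were singled out after their values were seen.

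Within Müller glia the members were spread over cells to unlike degrees. The 143 cells with the most Mt1 UMIs, 10% of the class, held 69.8% of all glial Mt1 UMIs, and 1 cell held 97. The corresponding share was 88.8% for Mt2. It was 64.6% for Gstp1, 61.7% for Sod2 and 53.5% for Sod1, and 45.1% for Prdx6, 43.2% for Prdx1 and 42.1% for Gpx4. Mt1 rested on 2007 glial UMIs, against 333 for Gstp1 and 596 for Sod2, so these shares are not on an equal footing. Prdx6, Prdx1 and Gpx4 had counts nearer to that of Mt1 (2369, 1689 and 1582 UMIs), and each had a lower share than Mt1. The share of Mt2, with 751 UMIs, was above all of these. Mt3 and Hmox1 were seen in fewer than 143 glia, which fixes their share at 100%. These shares also depend on how many UMIs a gene has in all and on the depth of each cell. In the thinned glia, Mt2 was seen in 24.4% of the 295 cells with an Mt1 UMI and in 5.16% of the 814 without. The cells come from all 11 mice and are not replicates, so this is a description.

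Gpx4 showed another pattern, being highest in photoreceptors. It ran from 596 to 1089 CPM in cones and from 392 to 1125 CPM in rods, where the lowest value belonged to control mouse 2. Rods and cones overlapped, and all cone values were above those of Müller glia (307 to 501 CPM), bipolar cells (178 to 339 CPM) and amacrine cells (134 to 248 CPM). Rods held 26.7% of all Gpx4 UMIs with 27.9% of the cells in control mice, and 58.6% with 50.9% of the cells in STZ mice. Part of the reads of this gene may be shared with the pseudogene Gpx4-ps2, which held 11120 UMIs against 23436 for Gpx4.

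Prdx1 was highest in Müller glia, with 319 to 698 CPM, above every value of the neuron classes, which overlapped one another. Sod1 had medians from 133 CPM in rods to 218 CPM in Müller glia. The ranges of all classes overlapped over the 11 mice, but within a mouse Sod1 was higher in amacrine than in bipolar cells in 11 of 11. Sod2 was lowest in Müller glia by its median (146 CPM) and highest in amacrine cells (281 CPM), in which the cluster led by Dync1i1 and Kcnh1 reached 502 CPM (463 to 543). Neighbouring classes overlapped in Sod2 as well. Gstp1 had medians from 60.3 CPM in bipolar cells to 123 CPM in cones, again with overlap. Gstp1 is uncertain as a single gene, since its near copy Gstp2 held 4467 UMIs against 4524 and Gstp-ps 3048.

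The 6 smaller classes had too few cells per mouse for a test, and their UMIs were pooled over mice. The intervals are exact Poisson 95% intervals of the pooled count and leave out the differences between mice. Cells of the retinal pigment epithelium (75 cells), a tissue that was dissected away in the study but left some cells, held Mt1 at 2305 CPM (2022 to 2616) and Mt2 at 646 CPM (501 to 820.5). Astrocytes (47 cells) held Mt1 at 999.6 CPM (886 to 1124), Mt2 at 466 CPM (389 to 553) and Prdx6 at 910.0 CPM (802 to 1029). All 5 of these levels lay above the pooled Müller glia level of the same gene, which was 509 CPM (487 to 531) for Mt1, 190.3 CPM (177 to 204) for Mt2 and 600.4 CPM (576 to 625) for Prdx6. In 1 STZ mouse, however, a single astrocyte carried 64 of the 279 Mt1 UMIs of this class.

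Mt3 was also seen in neurons. Retinal ganglion cells (96 cells) held 95 Mt3 UMIs, or 65.9 CPM (53.4 to 80.6), above the 37.0 CPM (31.2 to 43.5) of pooled glia, and 44 of the 96 cells carried at least 1. These cells were deep, with 1440673 UMIs in all. Their Mt2 was 5.55 CPM (2.40 to 10.9). Pooled over all mice, Hmox1 was highest in microglia (59 cells, 309 CPM (228 to 408)) and next in astrocytes (122 CPM (84.4 to 170.2)), but its 49 microglial UMIs lay in 12 cells. This order was not seen in control mice, whose 12 microglia and 6 astrocytes held no Hmox1 UMI, which allows up to 81.3 and 87.2 CPM, against 14.9 CPM (7.67 to 25.9) in control Müller glia. In STZ mice all 22 microglial UMIs came from mouse 1. Microglia held no Mt3 UMI, which allows a level of up to 18.9 CPM. Endothelial cells (113 cells) held Sod1 at 494 CPM (442 to 549) and Prdx1 at 359 CPM (315 to 407). Their cluster had all 9 endothelial markers raised, but its leading genes also included the pericyte marker Rgs5, and no cluster was named as pericytes.

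**Figure D2:**
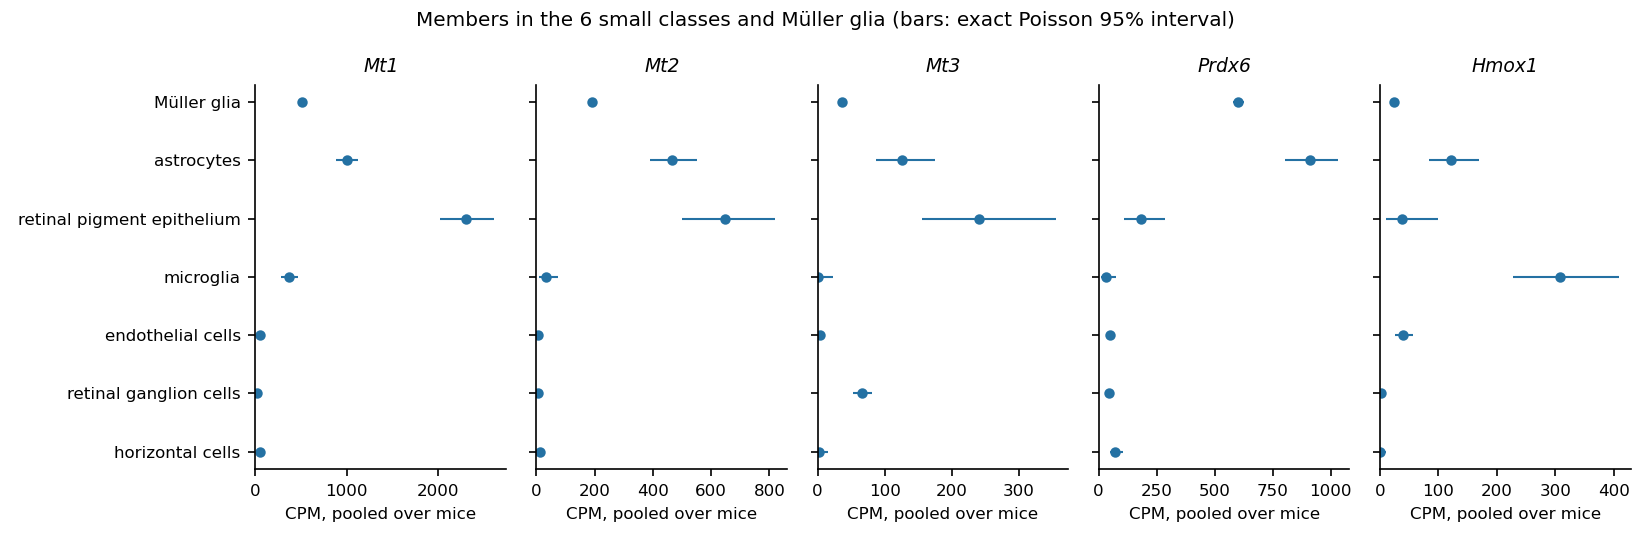
The x axes give pooled CPM over all mice on a linear scale from 0, the y axis the 6 small classes and Müller glia; points are pooled levels and bars exact Poisson 95% intervals. Mt1 and Mt2 are highest in retinal pigment epithelium and astrocytes, Mt3 in retinal pigment epithelium and astrocytes with ganglion cells above Müller glia, Prdx6 in astrocytes, and Hmox1 in microglia.

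To ask what hyperglycemia changed, STZ mice were compared with their control littermates in each class with edgeR's quasi-likelihood test over all genes that passed its filter on low counts, with Benjamini-Hochberg adjustment over all of them. A gene was called at an adjusted p under 0.05. Of the 10 members, 9 passed the filter in Müller glia, 7 in amacrine cells, 6 in bipolar cells, and 5 each in rods and cones. Müller glia had 3 of 9 members called, where 10.8% of all tested genes were called. Amacrine cells had 5 of 7 (38.8% of all tested genes) and bipolar cells 4 of 6 (45.3%). Rods had 2 of 5 (38.4%) and cones 0 of 5 (18.8%). In cones the unadjusted p was under 0.05 for 0 of 5 members and for 34.3% of all tested genes, and DESeq2 also called none of the members. All but 1 of the 14 calls were decreases in STZ. Among all tested genes, calls in the lower direction made up 5.03% for Müller glia, 20.5% for amacrine cells, 23.9% for bipolar cells, 7.9% for cones and 20.4% for rods. The median log2 fold change of the tested members was -0.33 for Müller glia, -0.62 for amacrine cells, -1.01 for bipolar cells, -0.27 for cones and -0.64 for rods. Over all tested genes the medians were 0.00, 0.02, 0.02, 0.10 and 0.02 in that order. Without TMM, scaled by total counts alone, those medians were 0.16, 0.37, 0.45, 0.42 and 0.35, so the fold changes given here are relative to the middle of all genes. In bipolar cells, for one, that scaling turned 2137 higher and 2399 lower calls of all genes into 3814 higher and 1291 lower calls, while Prdx1, Sod1 and Gstp1 kept estimates below 0 in each class where they were called, though not each call.

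**Figure D3:**
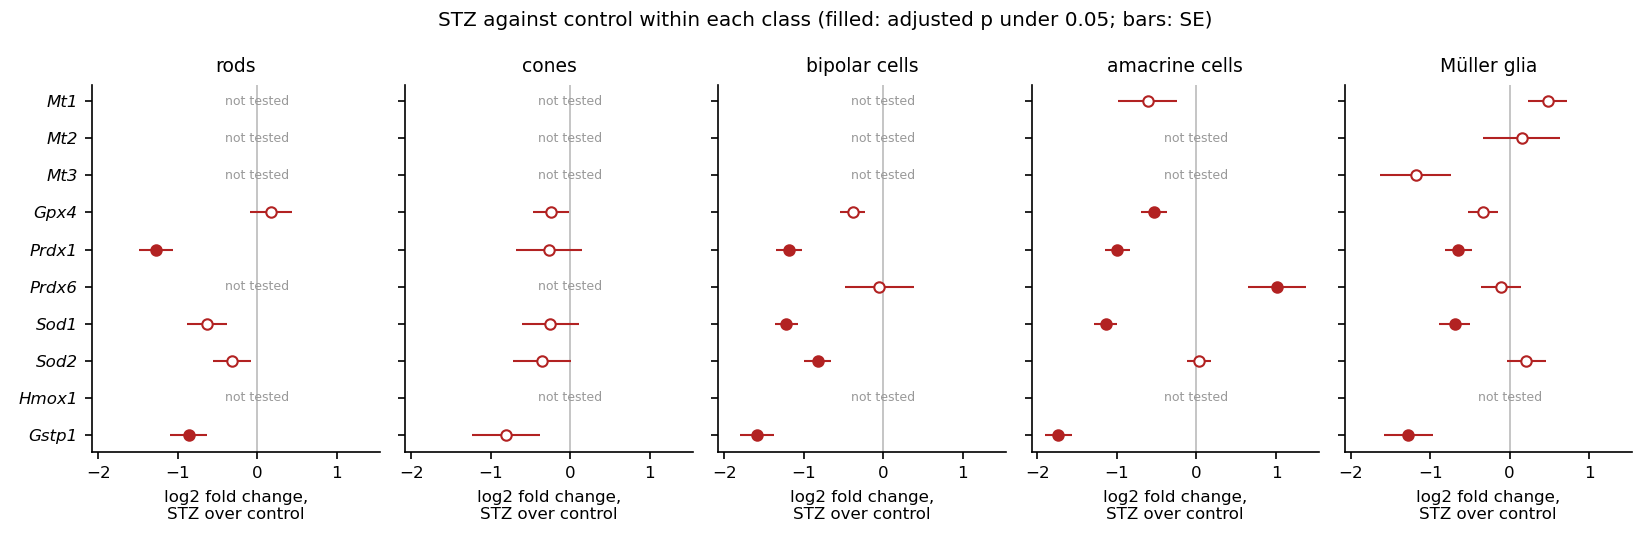
Each panel is 1 cell class, with the log2 fold change of STZ over control on the x axis and the 10 genes on the y axis; points are edgeR estimates, bars SE, and filled points have an adjusted p under 0.05. Prdx1 and Gstp1 are called as lower in 4 of 5 classes, Sod1 in 3, and Prdx6 in amacrine cells is the single call to the right of 0.

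These comparisons rest on libraries that differed in other ways. The summed level of a list of 24 dissociation and immediate early genes was 1739.8 to 2145 CPM in amacrine cells of control mice and 3723 to 4517 CPM in those of STZ mice. In Müller glia it was 1526 to 2624 CPM in control and 7131 to 10805 CPM in STZ, with 19 and 24 of the 24 genes seen. In bipolar cells it was 1538 to 1809 against 2018 to 2264 CPM, and in rods 842 to 1172 against 2945 to 4819.7 CPM. The mitochondrial share of UMIs in amacrine cells was 10.6 to 12.5% in control and 3.40 to 7.47% in STZ. The 10 rod markers, all seen in both groups, summed to 276 to 582 CPM in Müller glia of control mice and 866 to 2265 CPM in those of STZ mice. The part of these differences in the results on the members was not tested.

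Prdx1, the main cytosolic peroxiredoxin, fell in rods, bipolar cells, amacrine cells and Müller glia of STZ mice. In rods it was 234, 215 and 249 CPM in control and 106, 114 and 107 CPM in STZ mice, a log2 fold change of -1.27 ± 0.22 (SE, adjusted p = 2.7e-04). In bipolar cells it was 235, 298 and 302 CPM in control and 102, 126 and 138 CPM in STZ, a log2 fold change of -1.19 ± 0.17 (SE, adjusted p = 8.3e-05). The groups did not overlap in either class, nor in the 2 classes that follow. In amacrine cells the values were 297, 244 and 251 CPM in control and 155, 138 and 111 CPM in STZ, a log2 fold change of -0.997 ± 0.16 (SE, adjusted p = 2.7e-04). In Müller glia they were 585, 698 and 689 CPM in control and 418, 435 and 347 CPM in STZ, a log2 fold change of -0.65 ± 0.17 (SE, adjusted p = 0.0256). In cones control mouse 3 was high and the other control mice low, and the difference of -0.27 ± 0.41 (SE, log2) was not called. The control cones rest on 14, 13 and 46 cells.

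Sod1, the cytosolic copper and zinc superoxide dismutase, fell in bipolar cells, amacrine cells and Müller glia. It was 307, 327 and 382 CPM in bipolar cells of control mice and 135, 139.8 and 159.9 CPM in those of STZ mice, a log2 fold change of -1.22 ± 0.15 (SE, adjusted p = 2.3e-05). In amacrine cells it was 362, 389.5 and 415 CPM in control and 209, 164 and 164 CPM in STZ, a log2 fold change of -1.14 ± 0.14 (SE, adjusted p = 3.5e-05). All control values lay above all STZ values in both classes. In Müller glia the values were 305, 346 and 415 CPM in control and 218, 201 and 209.7 CPM in STZ, also without overlap, with a log2 fold change of -0.69 ± 0.20 (SE, adjusted p = 0.0384). In rods the difference of -0.64 ± 0.25 (SE, log2) missed the threshold (edgeR adjusted p = 0.0539), and the groups overlapped.

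Gstp1 had the largest decrease among the members in bipolar cells, amacrine cells and Müller glia, and fell in rods too. It was 192, 162 and 192 CPM in amacrine cells of control mice and 60.7, 48.9 and 56.2 CPM in those of STZ mice, a log2 fold change of -1.74 ± 0.17 (SE, adjusted p = 6.3e-06). In bipolar cells it was 152, 167 and 174 CPM in control and 55.5, 69.9 and 39.6 CPM in STZ, a log2 fold change of -1.59 ± 0.21 (SE, adjusted p = 5.5e-05). The lowest control value was above the highest STZ value in both classes. In Müller glia the values were 146, 139.6 and 157 CPM in control and 44.3, 79.5 and 54.2 CPM in STZ, a log2 fold change of -1.27 ± 0.31 (SE, adjusted p = 0.0181). In rods they were 193, 121 and 211 CPM in control and 107, 105 and 114 CPM in STZ, a log2 fold change of -0.86 ± 0.23 (SE, adjusted p = 0.00849). The call in rods was lost without control mouse 3 (adjusted p = 0.0787) and without each STZ mouse in turn (adjusted p = 0.0532, 0.0651 and 0.0573 for mice 1, 2 and 3), which left 1 member called there.

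**Figure D4:**
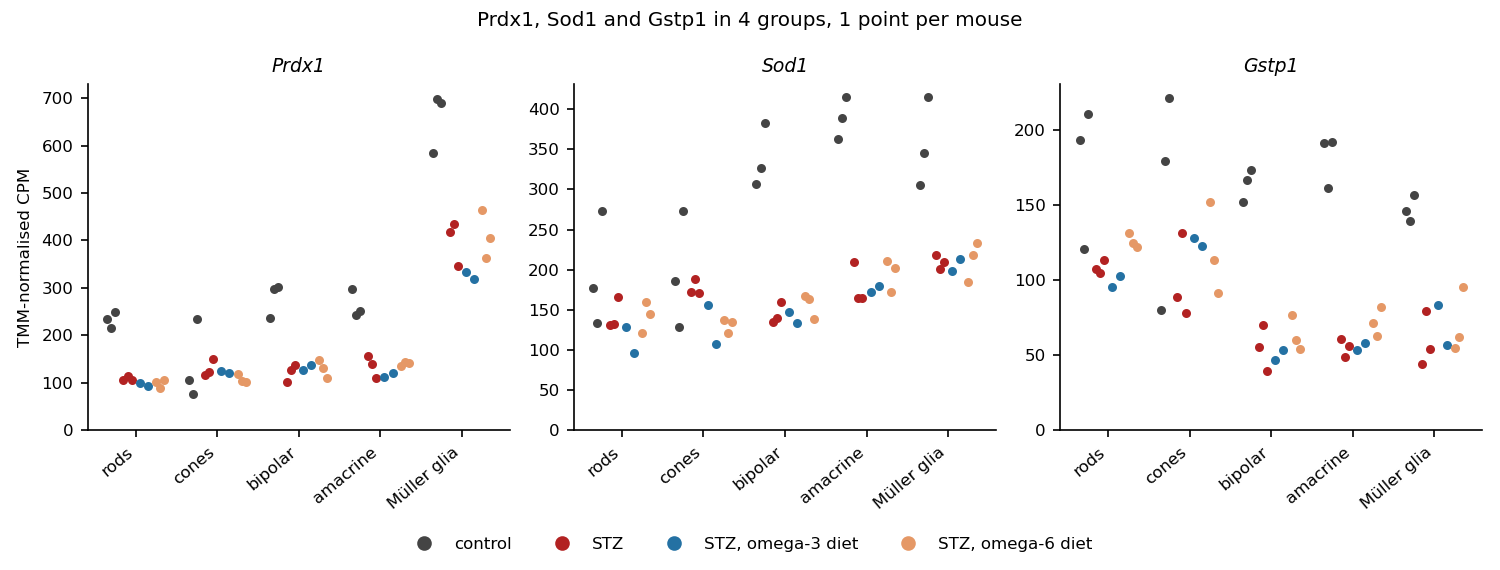
The x axis gives the cell class and the y axis the TMM-normalised CPM on a linear scale from 0; each point is 1 mouse, coloured by group. In bipolar cells, amacrine cells and Müller glia the control points of all 3 genes lie above the points of the 8 STZ-treated mice, and in cones the groups overlap.

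The labels do not tie the litter of the diet groups to that of the control mice, and their levels are set beside the rest without a test. In amacrine cells Gstp1 was 53.2 and 58.1 CPM with ω-3 and 71.6, 62.5 and 81.8 CPM with ω-6. Prdx1 there was 113 and 121 CPM with ω-3 and 136, 143 and 141 CPM with ω-6. Sod1 was 172 and 179.9 CPM with ω-3 and 211, 172 and 202 CPM with ω-6. All of these lay below the lowest control value of the same gene. The same control mice had already entered the comparison that singled out these 3 genes. How many of all genes lay below control in this way was not counted, so this is no independent repeat.

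The calls in Müller glia were near the threshold. DESeq2 called Gstp1 alone there, with adjusted p = 0.117 for Prdx1 and 0.162 for Sod1. Leaving out 1 mouse left 0 members called without STZ mouse 1 or 3, and 1 without control mouse 1 (Prdx1), control mouse 2 (Gstp1) or STZ mouse 2 (Gstp1), while each of the 3 estimates stayed below 0.

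The promoter windows of these 3 genes (RefSeq, GRCm38.p6) are shown because they moved together and because Nrf2, the main inducer of antioxidant genes, acts through the antioxidant response element. Capitals mark matches to its core, searched as TGACNNNGC or TGAGNNNGC on both strands. The second form can overlap TGAGTCA, the site of AP-1.
Prdx1 (chr4:116685349-116685648, plus strand): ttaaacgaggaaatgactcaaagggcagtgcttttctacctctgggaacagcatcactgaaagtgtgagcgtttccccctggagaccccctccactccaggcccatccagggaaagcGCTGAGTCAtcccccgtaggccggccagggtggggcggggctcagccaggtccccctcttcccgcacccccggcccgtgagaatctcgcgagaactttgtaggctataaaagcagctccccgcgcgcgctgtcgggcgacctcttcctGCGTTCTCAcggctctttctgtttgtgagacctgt
Sod1 (chr16:90220512-90220811, plus strand): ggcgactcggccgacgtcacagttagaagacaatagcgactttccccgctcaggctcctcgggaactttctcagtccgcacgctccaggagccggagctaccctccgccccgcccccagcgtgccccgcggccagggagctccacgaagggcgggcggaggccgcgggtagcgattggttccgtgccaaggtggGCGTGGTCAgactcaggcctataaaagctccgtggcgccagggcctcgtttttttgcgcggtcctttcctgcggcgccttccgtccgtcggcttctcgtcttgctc
Gstp1 (chr19:4037863-4038162, minus strand): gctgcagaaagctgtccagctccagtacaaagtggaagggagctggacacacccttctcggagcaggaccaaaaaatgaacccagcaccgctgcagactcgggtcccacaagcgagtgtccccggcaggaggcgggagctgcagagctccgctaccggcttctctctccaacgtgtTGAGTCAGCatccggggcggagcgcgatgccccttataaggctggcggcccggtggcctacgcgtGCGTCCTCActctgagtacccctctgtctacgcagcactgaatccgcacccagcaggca
The windows held 2, 1 and 2 matches, and 27.8% of all 32851 windows held at least 1. The share of windows with 2 or more was not counted. A match is again no mapped binding site, and a part of Nrf2 in these decreases was not tested. The windows of Mt2 and Mt3 held 1 match each and those of Mt1, Gpx4 and Sod2 none. None of Prdx1, Sod1 and Gstp1 held a metal response core.

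Sod2, Gpx4 and Prdx6 were each called in 1 class, and whether their differences were unlike between neuron classes was not tested. Sod2, the manganese enzyme of mitochondria, was 300.4, 305 and 229 CPM in bipolar cells of control mice and 153, 142 and 174 CPM in those of STZ mice, a log2 fold change of -0.83 ± 0.17 (SE, adjusted p = 0.00122). It was not called in the other 4 classes, where the log2 fold change ran from -0.36 in cones to 0.21 in Müller glia. Gpx4 fell in amacrine cells, from 248, 175 and 216 CPM in control to 159, 156 and 134 CPM in STZ mice, a log2 fold change of -0.54 ± 0.16 (SE, adjusted p = 0.0155). In bipolar cells Gpx4 was 237, 282 and 273 CPM in control and 191, 239 and 178 CPM in STZ mice, and its log2 fold change of -0.38 ± 0.16 (SE) missed the threshold (edgeR adjusted p = 0.0555). Scaling by total counts in place of TMM, chosen after seeing the data, ended the calls of Sod2 in bipolar and Gpx4 in amacrine cells, with log2 fold changes of -0.40 for Sod2 and -0.18 for Gpx4, and called Sod2 in amacrine cells as higher. Prdx6 rose in amacrine cells, where it was 14.6, 15.7 and 18.7 CPM in control and 17.9, 45.8 and 36.9 CPM in STZ mice, a log2 fold change of 1.01 ± 0.37 (SE, adjusted p = 0.0404). The lowest STZ value, of mouse 1, lay inside the control range. Its call was lost with DESeq2 (adjusted p = 0.0791) and without any 1 of control mice 1, 2 and 3 or STZ mice 2 and 3, with edgeR adjusted p from 0.0572 to 0.188. Without control mouse 1 or STZ mouse 3 the call of Gpx4 was lost as well (edgeR adjusted p = 0.0825 and 0.0864), which left 3 members called in amacrine cells. Prdx6 in amacrine cells stood at 1.99% of its glial level in control and 5.41% in STZ mice. The 4 glial genes also stood higher there in STZ mice, Rlbp1 at 0.169% and 0.47%, Apoe at 0.187% and 0.401%, Glul at 2.18% and 2.78%, and Slc1a3 at 0.735% and 0.776%, in control and STZ mice in that order. The Müller glia markers summed to 505 to 579 CPM in amacrine cells of control mice and 613 to 798 CPM in those of STZ mice, and their part in the rise of Prdx6 was not tested.

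The metallothioneins were not called in any class in which they were tested. Mt1 in amacrine cells was 26.9, 44.9 and 64.0 CPM in control and 45.8, 28.1 and 15.7 CPM in STZ mice, with overlap, and a log2 fold change of -0.62 ± 0.37 (SE, adjusted p = 0.207). In Müller glia Mt1 was 468 ± 191 CPM (SD, n = 3) in control and 637 ± 146 CPM (SD, n = 3) in STZ mice, a log2 fold change of 0.48 ± 0.25 (SE, adjusted p = 0.232). The highest control value, 687 CPM in mouse 3, lay inside the STZ range, and the other control mice lay below it. Mt2 was 100.3, 39.9 and 387 CPM in control and 218, 201 and 184 CPM in STZ mice, a log2 fold change of 0.15 ± 0.49 (SE, adjusted p = 0.864). The STZ mice were close to each other and lay between control mice 2 and 3, which differed by 9.70 times. Without control mouse 3, both genes would have been called as higher in STZ, Mt1 with a log2 fold change of 0.88 (edgeR adjusted p = 0.0361) and Mt2 with 1.50 (adjusted p = 0.0234). Without control mouse 1 or 2, the Mt2 estimate turned to -0.16 or -0.26. 

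Mt3 was 46.0, 99.7 and 58.9 CPM in Müller glia of control mice and 28.5, 18.7 and 32.5 CPM in those of STZ mice. The groups did not overlap, but each value rests on 4 to 21 UMIs and the difference of -1.18 ± 0.44 (SE, log2) was not called (edgeR adjusted p = 0.104). Hmox1 was below the filter in glia. Its values were 12.5, 6.65 and 22.4 CPM in control and 19.0, 103 and 32.5 CPM in STZ mice, from 3, 1 and 8 and 6, 22 and 9 UMIs. The STZ range reached higher, through mouse 2, and the groups overlapped. Fitted without a filter, the log2 fold change was 1.65 ± 0.59 (SE, edgeR adjusted p = 0.116).

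**Figure D5:**
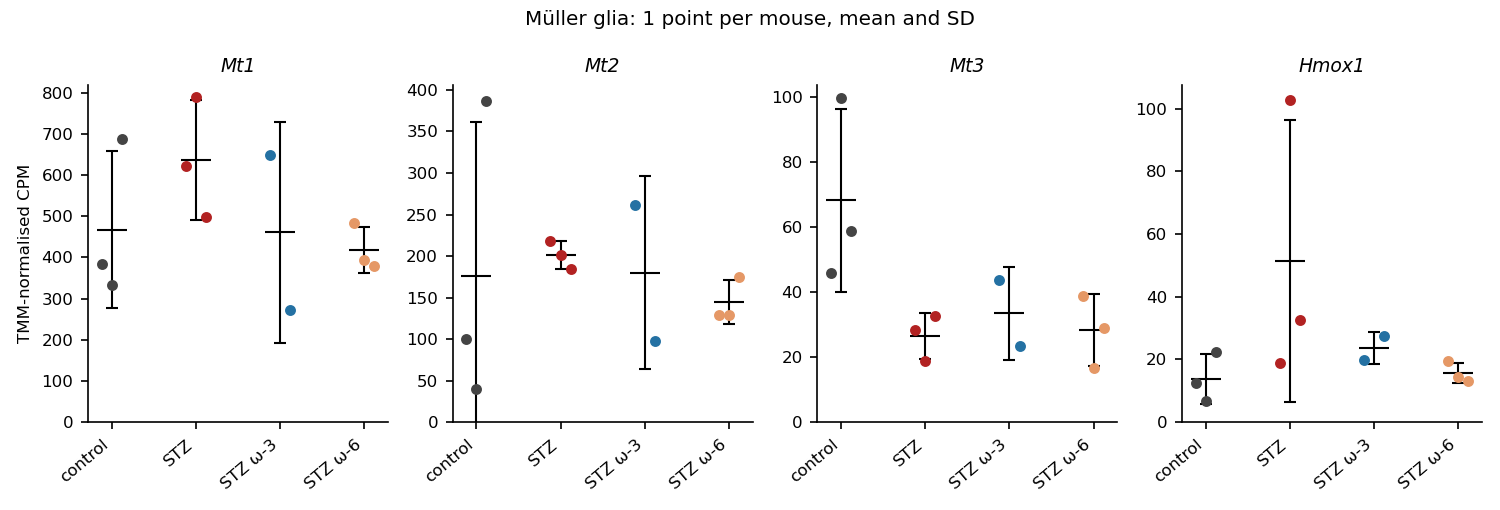
The x axis gives the 4 groups and the y axis the TMM-normalised CPM in Müller glia on a linear scale from 0; points are mice, the dash is the mean and the bar the SD. In Mt1 and Mt2 the control and ω-3 mice spread widely and overlap with all other groups. The STZ points of both genes lie above those of the diet group other than ω-3. The 3 control points of Mt3 lie above those of the other groups, and 1 STZ mouse lies high in Hmox1.

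Summed over all cells of a library and scaled by total counts without TMM, 7 of 10 members did not overlap between control and STZ mice. Of all 14337 genes with a mean of at least 5 CPM, 60.2% did not overlap either, 6025 of them higher and 2608 lower in STZ mice. Hmox1, Gpx4 and Sod2 were higher in STZ mice. Hmox1 was 1.84 to 4.45 CPM in control and 6.88 to 13.3 CPM in STZ mice. Gpx4 was 251 to 332 CPM in control and 461 to 509.5 CPM in STZ mice, and Sod2 211 to 236 CPM in control and 243 to 264 CPM in STZ mice. Gpx4 in amacrine cells and Sod2 in bipolar cells were called as lower with TMM, but neither was called when scaled by total counts. Those directions and the ones given here are therefore not on the same scale. Rods, the class in which Gpx4 had its highest median, made up 27.9% of cells in control and 50.9% in STZ mice. Mt3, Prdx1, Sod1 and Gstp1 were lower in STZ mice. Mt3 was 12.5 to 19.5 CPM in control and 6.88 to 7.26 CPM in STZ mice, and Gstp1 136 to 152 CPM in control and 78.6 to 89.0 CPM in STZ mice. An exact two-sided permutation test gave p = 0.1 for each of the 7, the smallest value that 3 against 3 mice allow. In such sums over all cells, fewer cells of a type and less RNA per cell cannot be told apart.

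Whether the STZ difference was itself another in Müller glia than in a neuron class was tested as an interaction, with the mouse as a block. Members that are low in a neuron class entered this test mainly through their glial counts, such as Mt2, which had no UMI in rods or cones of control or STZ mice. The counts are therefore over the members that also passed the filter in the neuron class itself, 5 each for rods and cones, 6 for bipolar cells and 7 for amacrine cells. None of them was called, where 5.6% of all tested genes were called against rods, 1.18% against cones, 2.74% against bipolar cells and 0.539% against amacrine cells. At an unadjusted p under 0.05 there were 2 of 5 against rods (18% of all tested genes), 0 of 5 against cones (11.9%), 3 of 6 against bipolar cells (13.8%) and 2 of 7 against amacrine cells (9.92%). The shares of all tested genes also hold genes that entered mainly through 1 class. They are therefore over another kind of set than the member counts. The members left out were not called either. The lowest adjusted p was that of Sod2 against bipolar cells (edgeR, interaction of 0.98 ± 0.29 (SE, log2), adjusted p = 0.0684), which was 0.21 in glia and -0.83 in bipolar cells. Against amacrine cells the lowest was that of Prdx6 (-1.23 ± 0.35 (SE, log2), edgeR adjusted p = 0.121), which became a call, together with Mt1, when STZ mouse 1 was left out.

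To ask whether the fatty acids in the diet changed these genes, the 3 ω-6 mice were compared with the 2 ω-3 mice in the same way. Since each diet came with its own nursing dam and cage, diet, dam and cage cannot be told apart. The tests take each pup as a replicate. No member was called in any class with edgeR or with DESeq2. Few genes were called at all, 0.0161% of those tested for rods and 0% for each of the other 4 classes. At an unadjusted p under 0.05 there was 1 member, Gstp1 in rods, beside 11% of all tested genes for rods. The other shares of all tested genes were 3.56% for Müller glia, 9.89% for amacrine cells, 4.21% for bipolar cells and 8.03% for cones. Gstp1 in rods was 95.6 and 103 CPM with ω-3 and 131, 125 and 122 CPM with ω-6, a log2 fold change of 0.34 ± 0.15 (SE, adjusted p = 0.431). The groups did not overlap, and the difference did not pass the correction for all genes tested.

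Mt1 in Müller glia was 650.0 and 272 CPM with ω-3 and 483, 393 and 378 CPM with ω-6, a log2 fold change of -0.17 ± 0.29 (SE, adjusted p = 0.994). The approximate 95% interval of this difference, -0.73 to 0.40, includes differences in either direction. The ω-3 mice differed widely and enclosed the ω-6 mice, and without ω-3 mouse 1 the estimate turned to 0.59. In Mt2 the ω-3 mice likewise lay on both sides of the ω-6 mice, with 262 and 97.7 CPM with ω-3 and 129.6, 129 and 175 CPM with ω-6, a log2 fold change of -0.35 ± 0.35 (SE, adjusted p = 0.994). Without ω-3 mouse 1 its estimate was 0.53. Over all classes and members tested, the log2 fold changes between diets ran from -0.53 to 0.37.

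Other genes of zinc handling, peroxide removal, glutathione, thioredoxin and haem and iron pathways (83 genes in 5 lists, 82 of them in the table) were read from the same fits. In STZ against control, Müller glia had 9 of 43 tested genes called (3 higher, 6 lower), amacrine cells 30 of 60 (10 higher, 20 lower), bipolar cells 28 of 54 (9 higher, 19 lower), cones 4 of 19 (0 higher, 4 lower) and rods 17 of 39 (7 higher, 10 lower). Among all tested genes the shares called were 10.8%, 38.8%, 45.3%, 18.8% and 38.4% in that order, beside 20.9%, 50%, 51.9%, 21.1% and 43.6% of the lists. The list of superoxide and peroxide removal held no called increase in any class, while 4 of 10 were lower in Müller glia, 8 of 11 in amacrine cells, 7 of 10 in bipolar cells, 1 of 4 in cones and 2 of 7 in rods. Calls in the lower direction made up 5.03%, 20.5%, 23.9%, 7.9% and 20.4% of all tested genes in these classes. Its median log2 fold change was -0.40 for Müller glia, -0.97 for amacrine cells and -1.01 for bipolar cells. In the list of regulators, haem and iron the calls went both ways, with 5 higher and 4 lower of 12 in bipolar cells and 5 higher and 3 lower of 13 in amacrine cells. Between the diets no gene of these lists was called in any class.

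In Müller glia the largest increases of these lists were those of Maff and Srxn1. Maff, a small Maf protein that pairs with Nrf2, was 0, 0 and 25.2 CPM in control and 838, 865 and 741 CPM in STZ mice, a log2 fold change of 6.14 ± 0.44 (SE, adjusted p = 7.7e-07). Srxn1, which restores over-oxidised peroxiredoxins, was 4.18, 19.9 and 5.61 CPM in control and 114, 295 and 202 CPM in STZ mice, a log2 fold change of 4.61 ± 0.54 (SE, adjusted p = 9.7e-05). For both genes the groups were far apart, although Maff was 0 in control mice 1 and 2, so its fitted fold change depends on the prior count. Prdx4, the peroxiredoxin of the secretory pathway, was 150.4, 113 and 104 CPM in control and 47.5, 46.8 and 54.2 CPM in STZ mice, a log2 fold change of -1.22 ± 0.32 (SE, adjusted p = 0.0263). It also fell in bipolar cells, with a log2 fold change of -1.76 ± 0.34, and in amacrine cells, with -1.55 ± 0.40. Gsta4, a glutathione transferase that acts on lipid aldehydes, fell in Müller glia by the same test, with -1.48 ± 0.32.

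Bach1, a haem-binding repressor of Hmox1, rose in rods and bipolar cells. In rods it was 8.06, 0 and 9.60 CPM in control and 34.1, 25.4 and 40.6 CPM in STZ mice, a log2 fold change of 2.17 ± 0.59 (SE, adjusted p = 0.0083). In bipolar cells its log2 fold change was 1.80 ± 0.35, and that of Mafg, another small Maf protein, was 2.16 ± 0.39. The sestrin Sesn1 rose in rods, with 1.94 ± 0.45, and its relative Sesn2 in amacrine cells, with 2.13 ± 0.40. Among zinc transporters Slc39a10, an importer, fell in rods with -2.29 ± 0.40 and Slc30a7, which moves zinc into the Golgi, rose in amacrine cells with 2.26 ± 0.51. Other decreases were those of Gstm5 in rods (-2.11 ± 0.42), the glutaredoxin Glrx2 in bipolar cells (-1.72 ± 0.17), Gpx7 in amacrine cells (-1.54 ± 0.40), and Prdx2 and Mgst3 in cones (-1.47 ± 0.25 and -2.14 ± 0.48). The values after each estimate in this paragraph are SE on the log2 scale, and all passed the edgeR threshold. Some rest on few UMIs in control mice 1, 2 and 3. In rods these were 2, 0 and 4 for Bach1 and 3, 1 and 9 for Sesn1. They were 1, 5 and 3 for Slc30a7 in amacrine cells and 4, 8 and 13 for Mgst3 in cones.

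Over 55 sums of 5 classes and 11 mice, each member was set against 8475 genes with a mean of at least 20 CPM. These correlations describe shared patterns over classes more than over mice, since the sums share libraries, and are given without a p. Mt1 was most like Gstm1 (Pearson's r = 0.955), Ptn (0.951) and B2m (0.951). Mt2 was most like Prelp (0.960), Rhoc (0.957) and Mlc1 (0.954), and Prdx6 most like Glul (0.957), Crip2 (0.942) and Csrp1 (0.940). These 3 members followed genes that are high in the Müller glia sums. Gpx4 was most like its own pseudogene Gpx4-ps2 (0.984), Cst3 (0.954) and Fth1 (0.949), and Gstp1 most like its near copies Gstp2 (0.999) and Gstp-ps (0.944), then Ndufa12 (0.845). Prdx1 was most like Eno1 (0.904), Eno1b (0.903) and Cd9 (0.902). Sod1 and Sod2 had looser matches, Slc25a3 (0.799), Gm8566 (0.779) and Rbm3 (0.770) for Sod1 and Chgb (0.697), Atp6v0b (0.684) and Ppp1r13b (0.678) for Sod2. Mt3 and Hmox1 were too low to enter.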

How the data were processed

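Retinas of 11 mice were measured by inDrop, 1 library per mouse, with UMIs counted per gene and cell. The authors deposited these UMI counts, raw and not normalised, in 1 column per cell, and the submitters' processing notes name the genome build GRCm38.p6 (mm10). No column lacked a sample. Cells with more than 300 genes (20033 of 20067) were clustered with Seurat 5.3.0 on 2000 variable genes and 75 principal components at a resolution of 0.2. The 25 clusters were named from markers (432 cells stayed unnamed). Scrublet marked under 0.5% of cells, too few to be taken as working, so no doublets were removed and leaving out the 5% of cells with the highest scores was an alternative.

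Counts were summed per mouse and class, with at least 10 cells, and tested with edgeR 4.0.16 (quasi-likelihood, TMM, filterByExpr, Benjamini-Hochberg over all tested genes, threshold 0.05) under R 4.3.3. The STZ and diet comparisons used the 2 groups concerned, and the interaction used both classes with the mouse as a block. Levels are CPM after TMM scaling within a class. Pooled levels, summed gene lists and sums over all cells are CPM of total UMIs without TMM. In simulated data for Müller glia in STZ against control, 93.5% of 4-fold and 31.2% of 2-fold changes were recovered over 4481 genes. Between the diets, 80.4% of 4-fold and 18.9% of 2-fold changes were recovered for Müller glia. The lowest diet shares were those of bipolar cells (74.3% and 15.6%) and the highest those of rods (94.1% and 42.7%). DESeq2 1.42.0, other scalings, no filter, other cell sets and leaving out each mouse were alternatives. Exact 95% Poisson intervals and the limit of 3 counts for a count of 0 cover counting error only. No 2 libraries of a group agreed within sampling noise (chi-square per degree of freedom of at least 3.40). The labels give each library as a separate sample, and the study's methods as a separate mouse. Members and lists were chosen with earlier results of these data known. Lists of pathway genes were read from the same fits, naming up to 2 called genes per direction and class with the largest change.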

Additional observations from a re-analysis of the deposited data

Results flagged for a closer look

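Signals in 2 classes too small for the tests stood above the control level by their counting intervals, which leave out the differences between mice. Hmox1 in microglia was 903 CPM (566 to 1366) in STZ mice, with all 22 UMIs in the 8 microglia of STZ mouse 1 and none in the other 2 STZ mice, while the 12 control microglia held no Hmox1 UMI, which allows up to 81.3 CPM. Hmox1 in astrocytes was 247 CPM (131 to 422) in 13 cells of STZ mice, against no UMI in the 6 control astrocytes. Mt1 in astrocytes was 2279 CPM (1889.8 to 2726) in STZ and 814 CPM (541 to 1177) in control mice, but 64 of the 120 STZ UMIs came from the single astrocyte of STZ mouse 2. By mouse, Mt1 was 666 and 1807 CPM in STZ mice 1 and 3 and 1267 and 576 CPM in control mice 1 and 3, so those ranges overlapped, and control mouse 2 had no astrocyte.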

How the results depend on the processing

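In bipolar cells and cones, and between the diets in all 5 classes, no alternative moved the count of called members by over 1.5 times. In rods, where 2 members were called, the count was 1 with scaling by total counts (chosen after seeing the data) or with no filter on low counts, and 4 with classes set by marker score. In Müller glia, where 3 were called, it was 1 with DESeq2, with scaling by total counts and with no filter. With no filter, the interaction counts of 0 became 1 against rods (Gpx4) and 1 against amacrine cells (Prdx6). Leaving out 1 mouse gave 1 to 3 calls in rods, 3 to 5 in amacrine cells, 0 to 2 in Müller glia and 0 to 2 in the interaction with amacrine cells. Mt2 in Müller glia of STZ mice turned to -0.16 and -0.26 (log2) without control mouse 1 or 2, and was 1.5 without control mouse 3. Mt1 there was 0.76 with classes by marker score (edgeR adjusted p = 0.0205) and 0.88 without control mouse 3. The diet differences of Mt1 and Mt2 in Müller glia turned to 0.59 and 0.53 without ω-3 mouse 1, and were -0.66 and -0.87 without ω-3 mouse 2. Of the alternatives for single genes, 257 kept direction and side of the threshold, 39 lost the call, 3 gained it and 5 changed sign.

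Whether replicate numbers pair the mice was not settled. Correlations of same-numbered deviations ran from -0.05 to 0.15 for control and STZ (1 of 15 over 0.1). For the diets they ran from 0.05 to 0.27 (5 of 10 over 0.1, with 2 pairs a class), and the pairs numbered 2 gave 0.18 to 0.27. With the replicate block, the diet difference of Mt1 in Müller glia was 0.016 (log2), against -0.17 without it. For STZ against control the block gave 3 calls for Müller glia, 5 for amacrine cells, 5 for bipolar cells, 0 for cones and 2 for rods. Depth limits Mt3 and Hmox1, with 146 and 96 UMIs in all Müller glia, and the control cones, with 73 cells.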
